A study of Homo sapiens with 7 samples.

Results

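The HLA class I genes encode the heavy chains that carry peptides to the surface of a cell, and 5 of them (HLA-B, HLA-C, HLA-E, HLA-F and HLA-G) were described with B2M, the shared light chain, and NLRC5, the transactivator of class I promoters. The 7 genes were taken by name from the 57189 genes in the count table, with no threshold on their values. They are not the whole class I family. RNA sequencing was done in 7 samples of RH30, an established line of alveolar rhabdomyosarcoma, a childhood muscle-lineage tumor driven by a PAX3-FOXO1 fusion. All samples carried the wild-type genotype label. According to the paper, the RH30 cells of the study expressed GFP and luciferase. In 4 samples (untreated replicates 1 to 4, with the labels BC11, BC13, BC14 and BC25/27 in their titles) the cells were untreated. In 3 samples (BV6 replicates 2 to 4, with the labels BC13, BC14 and BC25/27) they had received 5 µM BV6 for 24 h. BV6 is a Smac mimetic, a compound that makes cells degrade inhibitor of apoptosis (IAP) proteins and thereby activates NF-κB signaling. The study describes the RNA sequencing replicates as biological replicates, while the labels do not say what the BC label marks. The sources used here do not say whether untreated cells received a vehicle.

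Class I molecules display peptides from inside the cell to cytotoxic T cells and bind receptors of natural killer (NK) cells, many of which are inhibitory. The heavy chain folds with B2M and a peptide in the endoplasmic reticulum, where TAP brings in peptides made by the proteasome, tapasin (TAPBP) holds the empty molecule and ERAP1 trims the peptide. Promoters of classical class I genes are known for a module of a κB site, an interferon-stimulated response element (ISRE) and an SXY module, whose X2 and Y boxes bind CREB/ATF and NF-Y and which NLRC5 occupies through the RFX factors. The comparison of BV6 with untreated cells asks whether this set of transcripts changed in tumor cells that were exposed to the compound before any immune cell met them.

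The promoters are shown because IRF, NF-κB, CREB/ATF and NF-Y factors measured below are known to bind motifs of the kinds searched here. Sites of the RFX factors were not searched. RefSeq promoter sequences (GRCh38.p14) were matched for HLA-B, HLA-C, HLA-F, HLA-G and B2M, and not for HLA-E and NLRC5. HLA-G had 3 entries in the table, of which the one at the start of its canonical transcript was used. The 160 bases from 200 to 41 before the start site are given 5′ to 3′ on the strand of the gene, and capitals mark matches on either strand.
HLA-B promoter, chr6:31357220-31357379, minus strand: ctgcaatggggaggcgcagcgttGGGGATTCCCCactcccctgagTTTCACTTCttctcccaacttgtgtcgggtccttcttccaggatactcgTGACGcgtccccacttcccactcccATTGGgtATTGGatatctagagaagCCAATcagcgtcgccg
HLA-C promoter, chr6:31272133-31272292, minus strand: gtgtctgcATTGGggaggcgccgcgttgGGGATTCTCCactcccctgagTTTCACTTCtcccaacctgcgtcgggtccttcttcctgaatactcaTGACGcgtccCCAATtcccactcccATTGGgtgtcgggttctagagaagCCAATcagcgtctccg
HLA-F promoter, chr6:29723234-29723393, plus strand: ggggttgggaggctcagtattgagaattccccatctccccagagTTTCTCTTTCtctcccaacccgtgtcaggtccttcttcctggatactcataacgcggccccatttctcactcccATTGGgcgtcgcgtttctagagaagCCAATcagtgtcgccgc
HLA-G promoter, chr6:29827625-29827784, plus strand: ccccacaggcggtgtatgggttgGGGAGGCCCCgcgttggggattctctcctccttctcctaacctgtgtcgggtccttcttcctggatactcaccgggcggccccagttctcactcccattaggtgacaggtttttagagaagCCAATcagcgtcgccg
B2M promoter, chr15:44711317-44711476, plus strand: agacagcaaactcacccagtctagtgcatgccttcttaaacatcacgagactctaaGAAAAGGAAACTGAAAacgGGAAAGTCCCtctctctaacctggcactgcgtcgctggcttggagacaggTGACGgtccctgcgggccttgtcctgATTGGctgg
Here 4 motifs were searched over 250 bases before to 50 bases after the start site. The ISRE core (GAANNGAAA or GAAANNGAAA) was found in 10.6% of 35116 promoters, the κB consensus in 11.3%, the CRE core (TGACG) in 24.6% and the CCAAT box (CCAAT) in 34.6%. All 4 motifs matched in HLA-B, HLA-C and B2M. HLA-F had an ISRE core and CCAAT boxes, and HLA-G a κB consensus and 1 CCAAT box. In HLA-B, HLA-C and HLA-F the ISRE core began at -155, -151 and -156 from the start site, whereas B2M held overlapping ISRE cores at -144 and -138. The κB match stood upstream of the ISRE core in HLA-B (2 overlapping frames at -177 and -176) and HLA-C (-172), and downstream of it in B2M (-125). A match describes the letters of the reference sequence and is not evidence of binding in RH30 cells.

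**Figure D1:**
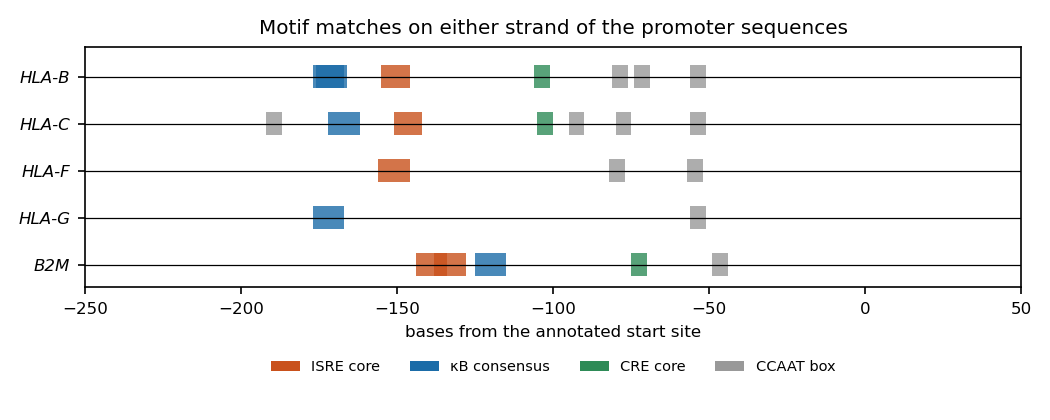
Position of motif matches, in bases from the annotated start site (x axis), in the promoter of each gene with a RefSeq entry (rows). Colored blocks are matches on either strand, with darker shades where matches of 1 motif overlap. HLA-B, HLA-C and B2M hold all 4 motifs, and HLA-F and HLA-G hold 2 each.

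In untreated RH30 cells the light chain was the most abundant of the 7 transcripts and the classical heavy chains came next. Levels between genes are given as CPM (counts scaled to the library size after TMM normalization) per kb of the canonical transcript, as mean ± SD over 4 samples. B2M stood at 528 ± 70.2 CPM per kb, HLA-B at 104 ± 18.7 and HLA-C at 58.3 ± 7.12. HLA-E, a nonclassical chain that presents leader peptides of other class I chains to CD94/NKG2 receptors, was at 19.1 ± 1.53 CPM per kb, and NLRC5 at 5.14 ± 0.45. The nonclassical chains HLA-G, known for its expression in trophoblast, and HLA-F, which can reach the surface without peptide, were lowest, at 1.48 ± 0.46 and 0.61 ± 0.25 CPM per kb. Among the untreated samples the ranges of neighbors in this order did not overlap, the closest being HLA-G (0.994 to 1.92) and HLA-F (0.280 to 0.851). In BV6-treated cells HLA-G (0.828 to 1.90) and HLA-F (0.209 to 0.991) overlapped, and the other neighbors kept separate ranges. Levels of the heavy chains depend on how reads of similar genes were assigned. Of all 50-base stretches of the canonical transcript, 2.56% in HLA-B, 6.76% in HLA-C, 6.16% in HLA-E, 1.89% in HLA-F and 5.28% in HLA-G also occurred in a transcript of another gene, and 0 in B2M and NLRC5. RH30 alleles that differ from the reference may also map less well, which was not tested.

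**Figure D2:**
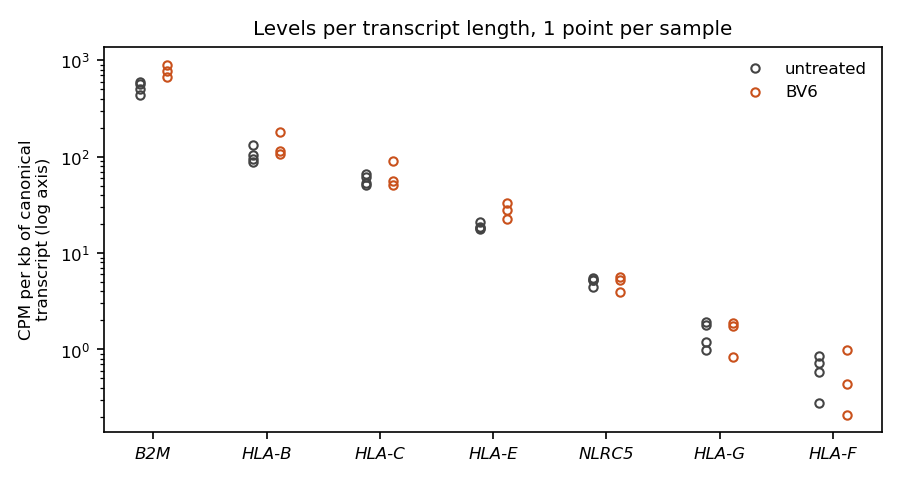
Level of each gene in CPM per kb of canonical transcript (y axis, log scale), with 1 point per sample for 4 untreated and 3 BV6-treated samples. B2M was highest and HLA-F lowest, and within each gene the groups lay close together on this scale.

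None of the 7 genes changed with BV6 past the threshold of edgeR's quasi-likelihood test (Benjamini-Hochberg adjusted p below 0.05 over 23124 tested genes), a threshold that 104 of all tested genes (0.45%) passed and 91 of them (0.394%) with higher expression. B2M and HLA-E were higher in every BV6-treated sample than in every untreated sample, by about 1.5-fold. HLA-B was also higher with BV6 within each label, but its groups overlapped, as did those of HLA-C, HLA-F, HLA-G and NLRC5. At an unadjusted p below 0.05 stood 2 of the 7 genes, B2M and HLA-E, as did 1939 of all tested genes. Every BV6-treated sample exceeded every untreated one for 2 of 7 genes and for 4.94% of all tested genes. The median log2 fold change was 0.18 over the 7 genes, 5 of them positive, and -0.014 over all tested genes, 47.7% of them positive. DESeq2's Wald test called 447 genes (1.93%) and B2M alone among the 7. With the BC label as a block and the 3 complete pairs only, edgeR called B2M (adjusted p = 0.0346) and HLA-E (adjusted p = 0.0495), and with the block on all 7 samples it called neither (adjusted p = 0.0537 and 0.0836).

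B2M lies at 15:44711358-44718851 (GRCh38, plus strand). Its level was 418, 472, 536 and 566 CPM in untreated replicates 1 to 4 and 642, 855 and 735 CPM in BV6 replicates 2 to 4. The lowest BV6-treated sample stood above the highest untreated sample. Untreated cells averaged 498 CPM with an SD of 66.2 (n = 4), and BV6-treated cells 744 CPM with an SD of 107 (n = 3). B2M thus had a log2 fold change of 0.58 with an SE of 0.14 and a 95% confidence interval of 0.27 to 0.89, that is 1.21-fold to 1.85-fold. Its p was 0.00193 before and 0.162 after adjustment in edgeR's test, and the adjusted p was 0.0352 in DESeq2. Within the labels BC13, BC14 and BC25/27 the log2 difference was 0.45, 0.68 and 0.38. In fits that omitted 1 sample each its log2 fold change stayed between 0.47 and 0.69. A change of this size was rarely called in these data. Of 118 genes with a mean above 30 CPM and an absolute log2 fold change between 0.5 and 0.6, edgeR's test called 2.

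HLA-E lies at 6:30489509-30494194 (plus strand), the only gene of the 5 heavy chains whose groups did not overlap. It was at 48.0, 45.3, 46.7 and 54.2 CPM in untreated replicates 1 to 4, a spread of 48.6 ± 3.90 (SD, n = 4). In BV6 replicates 2 to 4 it was at 71.2, 57.1 and 84.1 CPM, with a wider spread of 70.8 ± 13.5 (SD, n = 3). The lowest treated sample (BC14) was close to the highest untreated one (BC25/27). HLA-E had a log2 fold change of 0.54 (SE 0.14, 95% confidence interval 0.23 to 0.86), or 1.46-fold (1.17 to 1.81). The p was 0.00339 before adjustment, and the adjusted p was 0.216 in edgeR and 0.0689 in DESeq2. Within BC13, BC14 and BC25/27 the log2 difference of HLA-E was 0.65, 0.29 and 0.63. BC14, the label with the smallest difference in HLA-E, had the largest in B2M.

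HLA-B and HLA-C are the classical heavy chains of the set, which present peptides to CD8 T cells and are ligands of killer-cell immunoglobulin-like receptors. HLA-B (6:31353872-31367067, minus strand) was at 159, 137, 144 and 201 CPM in untreated replicates 1 to 4. In BV6 replicates 2 to 4 it was at 166, 175 and 280 CPM. The groups overlapped, since untreated replicate 4 exceeded BV6 replicates 2 and 3. Both samples labeled BC25/27 were the highest of their group. The log2 fold change of HLA-B was 0.37 (SE 0.20, 95% confidence interval -0.08 to 0.82), with an adjusted p of 0.679 in edgeR. Its within-label differences were 0.28, 0.27 and 0.48. BV6 replicate 4 carried much of the group difference, and without it the log2 fold change was 0.09. HLA-C (6:31268749-31272130, minus strand) was at 95.6, 79.1, 82.6 and 103 CPM in untreated replicates 1 to 4 and at 87.3, 79.4 and 140 CPM in BV6 replicates 2 to 4. Its highest sample was again BV6 replicate 4, and the other treated samples lay inside the untreated range. The log2 fold change of HLA-C was 0.18 (SE 0.19, 95% confidence interval -0.25 to 0.61, edgeR adjusted p = 0.825). Without BV6 replicate 4 it was -0.11. Without a block, the intervals of HLA-B and HLA-C include both no difference and an increase as large as that of B2M. With the BC label as a block on all 7 samples, HLA-B was at 0.34 (95% confidence interval 0.14 to 0.54, edgeR adjusted p = 0.156). HLA-C was then at 0.18 (95% confidence interval -0.08 to 0.44, edgeR adjusted p = 0.610). The blocked interval of HLA-B thus lay above 0, without a call after adjustment.

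HLA-F and HLA-G gave few reads. HLA-F (6:29722775-29738528, plus strand) had 97, 48, 25 and 67 counts in untreated replicates 1 to 4 and 36, 19 and 79 counts in BV6 replicates 2 to 4. In CPM these ranged from 0.41 to 1.26 in untreated and from 0.31 to 1.47 in treated samples. The highest and the lowest of all 7 samples were both BV6-treated. HLA-F had a log2 fold change of -0.18 (SE 0.52, 95% confidence interval -1.34 to 0.98, edgeR adjusted p = 0.944), and it was -0.94 without BV6 replicate 4, 0.22 without BV6 replicate 3 and 0.03 without untreated replicate 1. HLA-F overlaps HLA-F-AS1 on the opposite strand, which stood at 0.0652 CPM or less in every sample. HLA-G (6:29826967-29831125, plus strand) was at 2.38, 1.57, 1.31 and 2.54 CPM in untreated replicates 1 to 4 and 2.31, 1.09 and 2.51 CPM in BV6 replicates 2 to 4. Its log2 fold change was 0.01 (SE 0.34, 95% confidence interval -0.75 to 0.77, edgeR adjusted p = 0.994), and its sign turned to -0.0025 in DESeq2. HLA-G shared more stretches with HLA-E, 5.28% of its own, than with any other gene. For both genes a change of the size seen in HLA-E lies inside the interval.

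NLRC5 (16:56989485-57083531, plus strand), an interferon-inducible protein of the NLR family that has no DNA-binding domain of its own, was detected at 1654 to 2889 counts. It was at 37.5, 35.7, 30.5 and 35.6 CPM in untreated replicates 1 to 4 and 35.3, 27.0 and 38.5 CPM in BV6 replicates 2 to 4. The treated samples held both the highest and the lowest value. NLRC5 had a log2 fold change of -0.05 (SE 0.14, 95% confidence interval -0.38 to 0.27, edgeR adjusted p = 0.941). Its upper bound, 1.21-fold, lay next to the lower bound of B2M. A difference between the changes of NLRC5 and B2M was not tested.

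**Figure D3:**
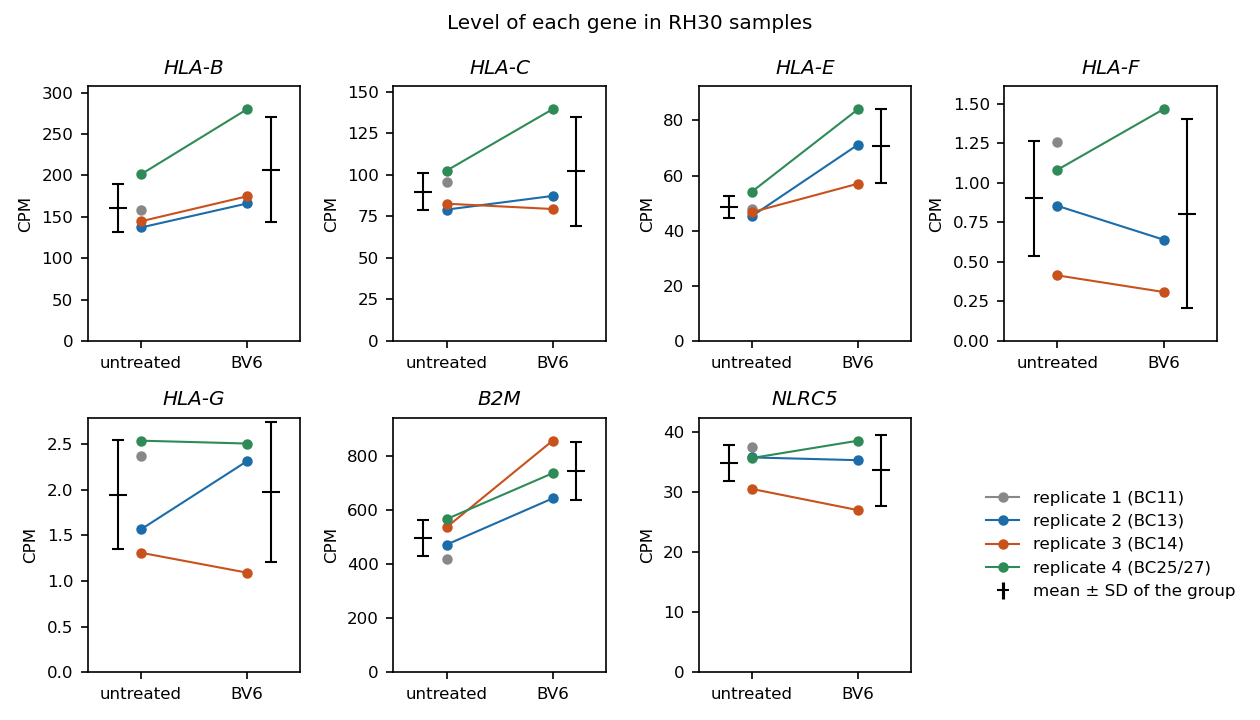
Level of each gene in CPM (y axis, from 0) in 4 untreated and 3 BV6-treated samples. Colored points are samples, lines join samples with the same BC label, and black bars give mean ± SD of each group. All treated samples lie above all untreated samples for HLA-E and B2M, and for the other 5 genes the groups overlap.

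The 3 labels that hold both conditions differed in how the set moved. Within BC25/27, 6 of the 7 genes were higher with BV6, and the median log2 difference was 0.44. HLA-G was the exception, at -0.018. Within BC13, 5 of 7 were higher, with a median of 0.28. Within BC14, 3 of 7 were higher (HLA-B, HLA-E and B2M), with a median of -0.057. HLA-B, HLA-E and B2M were higher in all 3 labels, HLA-C in 2, and HLA-F, HLA-G and NLRC5 in 1 each.

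Since each heavy chain needs B2M, the counts of each chain were set against those of B2M in the same sample. Library size cancels in this ratio except for the 2 added to both counts, which weigh most for HLA-F (19 to 97 counts). With 0.5 added instead, the change of HLA-F was -0.91. The log2 ratio moved by -0.24 for HLA-B, -0.44 for HLA-C, -0.05 for HLA-E, -0.89 for HLA-F and -0.60 for HLA-G from untreated to BV6-treated cells. For HLA-C the untreated samples averaged -2.47 (SD 0.24, n = 4) and the treated samples -2.90 (SD 0.52, n = 3). The groups overlapped for all 5 chains. BV6 replicate 3 carried much of these differences, and without it they were -0.032 for HLA-B, -0.17 for HLA-C, 0.20 for HLA-E, -0.26 for HLA-F and -0.12 for HLA-G. Without BV6 replicate 4 they were -0.48, -0.69, -0.19, -1.44 and -0.82. The exact permutation test over samples, two-sided, gave p = 0.429, 0.2, 0.857, 0.314 and 0.343 in the same order, and adjusted over the 5 chains p = 0.857 for HLA-E and 0.536 for the other 4. With only 4 against 3 samples, a high p in this test does not show that a ratio stayed the same. Within BC14 the ratio to B2M was lower with BV6 for all 5 chains, from -0.39 in HLA-E to -1.06 in HLA-F. Within BC25/27 it was higher for HLA-B (0.10), HLA-C (0.067), HLA-E (0.26) and HLA-F (0.053), and lower for HLA-G (-0.39).

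**Figure D4:**
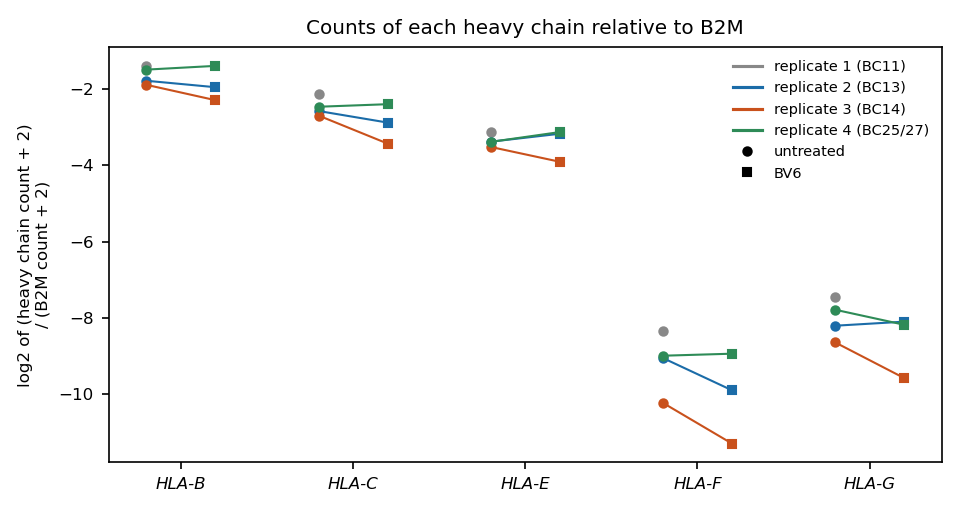
Log2 ratio of the count of each heavy chain to that of B2M (y axis, 2 added to both counts) in untreated samples (circles) and BV6-treated samples (squares). Lines join samples with the same BC label, and the groups overlap for each of the 5 chains. The BC14 line falls in all 5.

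The genes around the heavy chains were described from lists written by hand, beginning with the 14 genes of peptide supply and loading. Of these, 2 rose past the threshold, as did 0.394% of all tested genes. A positive log2 fold change was seen in 12 of 14, against 47.7% of all tested genes. The median was 0.43, against -0.014 over all tested genes. ERAP1, the aminopeptidase that trims peptides to their final length, rose 2.29-fold. It was at 53.7, 70.6, 60.4 and 66.7 CPM in untreated replicates 1 to 4 and at 143, 143 and 146 CPM in BV6 replicates 2 to 4. The treated samples differed by less than 3 CPM and lay far above the untreated ones. The log2 fold change of ERAP1 was 1.20 (SE 0.11, 95% confidence interval 0.94 to 1.45, edgeR adjusted p = 0.00349), and the call held in all 7 fits that left out 1 sample. PSME2, a subunit of the PA28 proteasome activator, rose 1.45-fold. It was at 106.5, 109.6, 110.1 and 112.5 CPM in untreated replicates 1 to 4 and at 156, 168 and 154 CPM in BV6 replicates 2 to 4. The log2 fold change of PSME2 was 0.54 (SE 0.09, edgeR adjusted p = 0.0368), and the call was lost in all 7 fits that left out 1 sample. Its fold change was no larger than that of B2M, and its untreated samples were more tightly grouped, at 110 ± 2.46 CPM (SD, n = 4).

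Every treated sample exceeded every untreated one for 7 of the 14 genes (PSMB9, PSME1, PSME2, TAP1, TAPBP, ERAP1 and ERAP2). The share over all tested genes was 4.94%. TAPBP, which encodes tapasin, had a log2 fold change of 0.88 (SE 0.15, edgeR adjusted p = 0.0519). It was at 76.0, 71.0, 61.0 and 65.9 CPM in untreated replicates 1 to 4 and at 130, 95.9 and 152 CPM in BV6 replicates 2 to 4. TAP1, a subunit of the peptide transporter, had one of 0.80 (SE 0.16, edgeR adjusted p = 0.0971), with 30.5, 25.7, 28.0 and 36.0 CPM in untreated and 46.8, 45.7 and 64.2 CPM in treated samples. PSMB9, an immunoproteasome subunit, had one of 0.82 (SE 0.19, edgeR adjusted p = 0.150), with 6.13 to 10.3 CPM in untreated and 15.0 to 17.0 CPM in treated samples. DESeq2 called these 3 genes as well, which made 5 of 14, against 1.93% of all tested genes. PSMB9 and TAP1 overlap on opposite strands in the annotation, and whether counting used strand was not given in the sources used here. TAP2, the partner of TAP1 in the transporter, had a log2 fold change of 0.19 (SE 0.12, edgeR adjusted p = 0.730). The general chaperones CALR, CANX and PDIA3 were at -0.19, 0.18 and -0.15, none past the threshold.

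**Figure D5:**
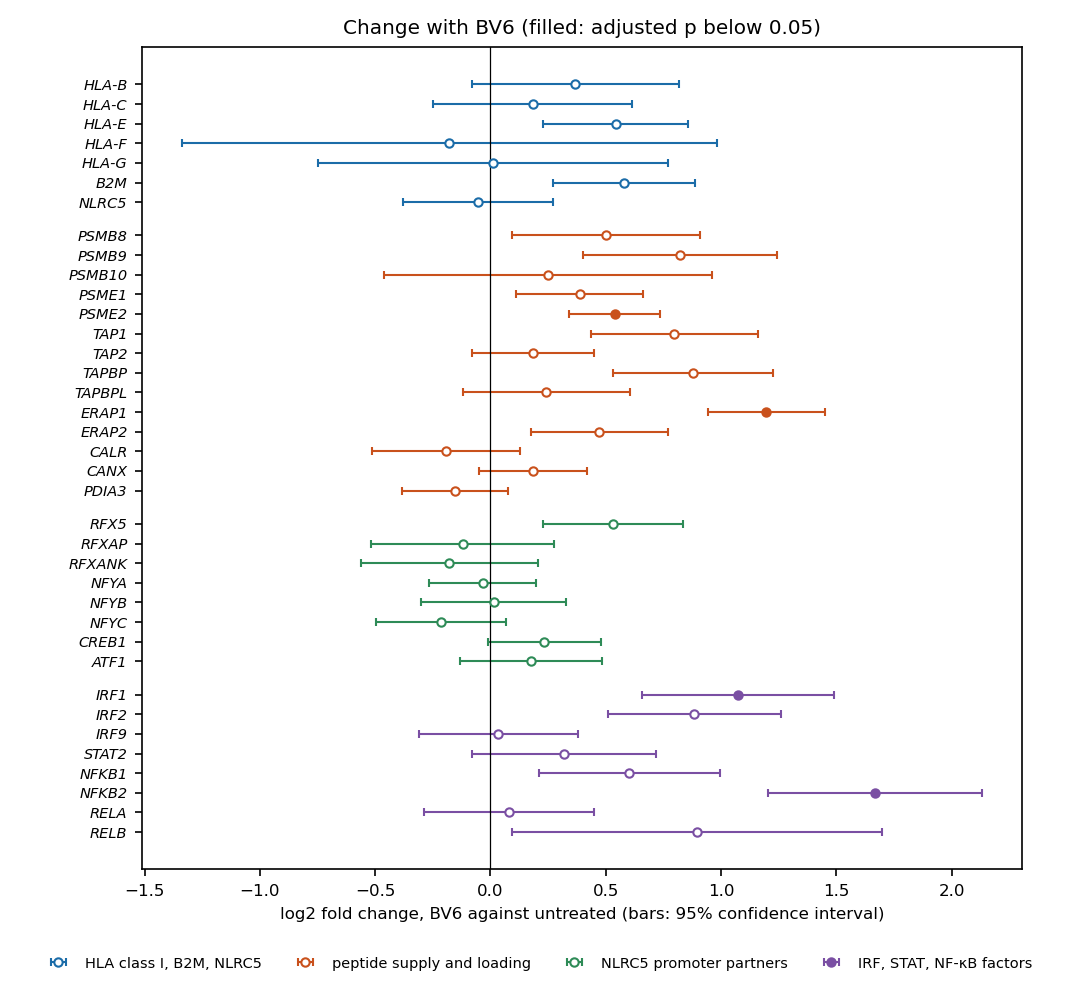
Log2 fold change of BV6 against untreated (x axis) with its 95% confidence interval for the 7 genes and for the genes of 3 lists (rows). Filled points passed an adjusted p below 0.05 in edgeR's test, which were PSME2, ERAP1, IRF1 and NFKB2. The intervals of HLA-E and B2M lie above 0, and those of the other 5 genes of the set include 0.

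The partners of NLRC5 at the SXY module showed no common direction. Of 8 genes (RFX5, RFXAP, RFXANK, NFYA, NFYB, NFYC, CREB1 and ATF1) 0 passed edgeR's test, 4 had a positive log2 fold change, and the median was -0.0095. DESeq2 called 0 of the 8. Over all tested genes, edgeR called 0.45% and DESeq2 1.93%, and 1939 of 23124 had an unadjusted p below 0.05 in edgeR. Among the 8, 1 gene stood below that unadjusted p. This gene was RFX5, the DNA-binding subunit of the RFX complex, at 59.7, 54.6, 65.1 and 72.7 CPM in untreated replicates 1 to 4 and 79.3, 88.6 and 105 CPM in BV6 replicates 2 to 4. Its log2 fold change was 0.53 (SE 0.14, edgeR adjusted p = 0.209). Every treated sample exceeded every untreated one for 2 of the 8 genes, RFX5 and CREB1, and for 4.94% of all tested genes. CREB1 had a log2 fold change of 0.23 (SE 0.11, edgeR adjusted p = 0.617).

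Of 8 IRF, STAT and NF-κB factors that act on the ISRE and κB site, 2 rose past the threshold, as did 0.394% of all tested genes. All 8 reported here had a positive log2 fold change, with a median of 0.74. Over all tested genes 47.7% were positive, with a median of -0.014. NFKB2, the precursor of the noncanonical NF-κB subunit p52, was at 93.8, 84.9, 56.2 and 74.6 CPM in untreated replicates 1 to 4 and at 289, 176 and 272 CPM in BV6 replicates 2 to 4. Its log2 fold change was 1.67 (SE 0.21, edgeR adjusted p = 0.011). IRF1, an activator that binds the ISRE, was at 17.6, 22.0, 14.9 and 15.5 CPM in untreated replicates 1 to 4 and at 46.1, 34.2 and 30.2 CPM in BV6 replicates 2 to 4. Its log2 fold change was 1.07 (SE 0.19, edgeR adjusted p = 0.0478). The call of IRF1 held in 1 of 7 fits that left out 1 sample, that without untreated replicate 2, and the call of NFKB2 in 6 of 7, all but that without untreated replicate 4. IRF2, at 0.88 (SE 0.17), had an adjusted p of 0.0722 in edgeR. DESeq2 called 3 of the 8, IRF2 (adjusted p = 0.00033) beside IRF1 and NFKB2, against 1.93% of all tested genes. RELB (0.90), NFKB1 (0.60), STAT2 (0.32), RELA (0.08) and IRF9 (0.03) did not pass. STAT2 and IRF9, which act downstream of interferon receptors, and RELA had 95% confidence intervals that included 0. With the BC label as a block, the interval of STAT2 was 0.14 to 0.55 (edgeR adjusted p = 0.168). Those of IRF9 (-0.26 to 0.39) and RELA (-0.11 to 0.41) still included 0.

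Lists of related genes held no called gene, while 0.45% of all tested genes were called in edgeR and 1.93% in DESeq2. An unadjusted p below 0.05 in edgeR's test was seen in 1939 of 23124 tested genes. At those shares, lists this short would rarely hold a called gene. A list of 10 genes held CIITA, a relative of NLRC5, and class II genes that it controls. Of these, 8 were tested, with 0 called in edgeR and DESeq2 and 0 at an unadjusted p below 0.05. CIITA itself was at 14.2 to 18.8 CPM in untreated and 11.5 to 19.7 CPM in treated samples. The other genes of the list, CD74 among them, did not exceed 2.17 CPM in any sample. Of 4 tested class I-like genes out of 6, 0 were called by either test and 0 had an unadjusted p below 0.05. MICA, a stress ligand of the NK receptor NKG2D, was at 5.59 to 6.52 CPM in untreated and 6.18 to 7.59 CPM in treated samples. Of 7 tested class I pseudogenes and neighboring transcripts out of 9, likewise 0 were called by either test and 0 reached an unadjusted p below 0.05. HLA-H, a pseudogene, was lowest in BV6 replicate 3 and highest in BV6 replicate 4, the same samples that were lowest and highest for HLA-F.

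The genes whose profile over the 7 samples lay closest to each of the 7, by the root mean square (RMS) difference of centered log2 CPM, were a description of these samples only. NLRC5 had the closest neighbors, TRAP1 (RMS 0.033) and GCN1 (RMS 0.038). Nearest to B2M were IMMP2L (RMS 0.076) and CCNB1IP1 (RMS 0.078), nearest to HLA-E MYLK (RMS 0.080) and PLEKHO1 (RMS 0.091), and nearest to HLA-C PIM1 (RMS 0.066) and KCNMA1 (RMS 0.093). ADAM19 (RMS 0.092) and NXF3 (RMS 0.10) lay nearest to HLA-B. HS3ST3A1 (RMS 0.13) and INKA1 (RMS 0.14) were nearest to HLA-F, and TULP1 (RMS 0.092) and ZNF574 (RMS 0.14) to HLA-G. None of the 7 genes had another of the 7 among its 2 nearest.

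Counts summed to between 54070030 and 77220882 per sample, and 3 counts, taken as the limit of detection, correspond to 0.0389 to 0.0557 CPM. These sums exceed the number of sequencing reads per library that the paper gives. A count may therefore not stand for a separate fragment, and how read pairs were counted was not given. The known response to BV6 was present, with all 4 genes of a check list (BIRC3, NFKBIA, NFKB2 and TRAF1) called higher. This list was chosen with earlier results of these data known, so it is no independent test, and NFKB2 is also among the regulators above. The 6 rhabdomyosarcoma markers were detected in every sample, summed to 1377 to 1925 CPM in untreated and 1135 to 1792 CPM in treated samples, and 0 of 6 were called by either test or reached an unadjusted p below 0.05. The 8 leukocyte markers summed to 8.75 to 12.9 CPM in untreated and 6.67 to 10.7 CPM in treated samples, with 0 of 4 tested called by either test and 0 at an unadjusted p below 0.05. NKG7 made up most of this sum, while PTPRC, which encodes CD45, stayed at 0.801 CPM or less and TYROBP at 0.097 CPM or less. The 6 endothelial and fibroblast markers summed to 61.9 to 88.8 CPM in untreated and 47.4 to 78.7 CPM in treated samples. PECAM1 made up most of this sum, at 48.3 to 68.2 CPM in untreated and 25.0 to 56.6 CPM in treated samples. CDH5 stayed at 0.259 CPM or less and DCN at 0.156 CPM or less. Of 4 tested, 0 were called by either test and 3 had an unadjusted p below 0.05 (PECAM1 lower, VWF and PDGFRB higher). Of all 23124 tested genes, edgeR called 0.45% and DESeq2 1.93%, and 1939 had an unadjusted p below 0.05 in edgeR. In bulk RNA, fewer cells that express a gene and less RNA of it per cell cannot be told apart.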

How the data were processed

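The authors deposited raw counts per gene of 7 stranded, poly(A)-selected, paired-end RH30 libraries. They mapped reads to GRCh38 with STAR 2.6.1d and counted over a union of Ensembl 95 isoforms. Handling of strand and of reads that match several genes was not given in the sources used here, and other libraries of the study were not analysed here. Genes with low counts were removed with filterByExpr (minimum 10), counts were TMM-normalized and the condition was tested by quasi-likelihood in edgeR 4.0.16 under R 4.3.3, with Benjamini-Hochberg adjustment over 23124 genes. Intervals are 95%. Alternatives were DESeq2 1.42.0, RLE, limma-voom (limma 3.58.1), other filters, the BC label as a block and leaving out each sample. Genes named were the 7 chosen, all list genes and the 2 nearest in profile to each. Genes and lists were chosen with earlier results of these data known, and 1 gene of the regulator list is left out and not reported here, for a reason unrelated to its values. Positions and canonical transcripts were taken from GENCODE 44, and promoters from RefSeq. The fits were tested on simulated data. Counts summed to 54070030 to 77220882 per sample, more than the sequencing reads per library that the paper gives.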

Additional observations from a re-analysis of the deposited data

Results flagged for a closer look

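A single sample stood apart from the other 3 of the untreated group in 3 of 78 sets of values tested with Dixon's ratio, and chance flags about 1 in 20 such sets. In each case the sample was untreated replicate 1, the one with no BV6 partner. HLA-J, a class I pseudogene, was at 2.82 CPM there and at 1.12 to 1.21 CPM in the other 3 (ratio 0.948). MYOD1, the myogenic regulator, was at 474 CPM there and at 293 to 311 CPM in the other 3 (ratio 0.899). PTPRC was at 0.753 CPM there and at 0.226 to 0.285 CPM in the other 3 (ratio 0.889). None of the 7 genes of the set exceeded the limit in the untreated group, the highest ratio being 0.734 in NLRC5.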

How the results depend on the processing

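The count of called genes moved from 104 to 447 with DESeq2, 242 without a filter, 218 with the replicate block, 341 with the block on complete pairs and 38 to 89 with 1 sample left out. Of the 7 genes, DESeq2 and the fit without a filter called 1 (B2M, log2 fold change 0.57 and 0.58, adjusted p = 0.0352 and 0.041), and the block on complete pairs called 2, B2M (0.50, adjusted p = 0.0346) and HLA-E (0.53, adjusted p = 0.0495). Over 14 alternatives the adjusted p ranged from 0.0346 to 0.426 for B2M and from 0.0495 to 0.517 for HLA-E. Both kept their direction in all 14. The replicate block on all 7 samples called 0 of the 7 genes (B2M adjusted p = 0.0537, HLA-E 0.0836). Tests used the BC labels as pairs only in the block fits, and differences within a label are given elsewhere as description. Deviations from the group means correlated at 0.46 and 0.44 within BC13 and BC14 but at 0.085 within BC25/27, where BV6 replicate 4 correlated best with untreated replicate 1 (0.28). Over the 6 samples with a partner the correlations were 0.52, 0.32 and 0.20.

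In the peptide list calls moved from 2 to 5 with DESeq2, 4 without a filter, 4 with the block, 5 with the block on complete pairs and 1 to 2 with 1 sample left out (2 only without BV6 replicate 3). Among NLRC5 partners 1 gene (RFX5) was called with the block and 1 on complete pairs. Among IRF, STAT and NF-κB factors calls moved from 2 to 1 with RLE, 4 with the block, 5 on complete pairs and 0 to 2 with 1 sample left out. The 4 genes of the response check fell to 2 without untreated replicate 4, with a range of 2 to 4.

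HLA-G turned to -0.0025 with DESeq2, -0.0037 with RLE, -0.0040 without a filter and -0.048 with limma-voom, and spanned -0.21 to 0.31 with 1 sample left out. With 1 sample left out HLA-C spanned -0.11 to 0.34 (negative without BV6 replicate 4), HLA-F -0.94 to 0.22 and NLRC5 -0.17 to 0.087 (positive without BV6 replicate 3). The change in the HLA-E to B2M log2 ratio was 0.025 as the mean of the within-label differences, and -0.19 to 0.20 with 1 sample left out. The cause of these changes was not tested. HLA-F rested on 19 to 97 counts per sample.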
